A study of Drosophila melanogaster with 4 samples.

Results

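Chromosome 4 of Drosophila melanogaster was followed in 1351 full, non-overlapping windows of 1 kb, out of 139706 such windows on all sequences that carried regions of the histone variant H2Av. The windows were all those of sequence 4 in FlyBase release 5, whose length in the file headers is 1351857 bp. No window was taken or left out by its value, but earlier results of these data were known when the windows were chosen. Each window was given the percent of its bases inside regions enriched for H2Av in 3 deposited lists. Each ChIP replicate has a list, and the series as a whole has another, referred to as the combined list. The last 857 bp do not fill a window and held no region.

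The series used chromatin immunoprecipitation followed by sequencing (ChIP-seq) on formaldehyde-fixed chromatin from nuclei of 3rd instar larvae of Oregon-R-modENCODE, a wild-type strain. There were 2 ChIP libraries made with the antibody named H2AV 9751, and 2 input libraries of chromatin without precipitation, all of the same strain, genotype and stage. No treatment or mutant was compared. The labels name no tissue and give no sign that the replicates were collected separately, so the spread between replicates may be technical. Read depth is unknown, and the number and width of regions can move with it.

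Chromosome 4 is the small "dot" autosome of this fly. Its genes, many of them active, lie among repeats and are packaged with proteins of heterochromatin such as HP1a and with POF, a protein that binds this chromosome. H2Av, the fly's single H2A variant, stands in for both H2A.Z and H2A.X of other animals. It is known both from nucleosomes near the starts of active genes and from the assembly of heterochromatin, where loss of H2Av lowers the binding of HP1a. In release 5 the numbering of chromosome 4 runs from the centromere side towards the telomere.

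H2Av regions took up most of chromosome 4 in replicate 1 and a little more than they left free in replicate 2. Regions covered 81.5% of the chromosome in replicate 1 (1102 kb in 99 regions) and 51.3% in replicate 2 (693 kb in 90 regions), a mean of 66.4% ± 21.4 (SD, n = 2). The combined list covered 72.1% (974 kb in 84 regions). Windows were seldom partly covered. In replicate 1, 1002 windows lay wholly in regions, 175 held none and 174 were partly covered. Replicate 2 had 604, 580 and 167 such windows, and the combined list 889, 310 and 152. The lists thus differed mainly in how many windows were full and how many were empty.

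A window was counted as covered when at least 50% of its bases lay in regions. Few windows were near that limit: in replicate 1, 10 windows had 40% to just under 50% and 10 had 50% to just under 60%, and in replicate 2 these were 20 and 16. By this count 1105 windows of chromosome 4 (81.8%) were covered in replicate 1, against 27.5% of the 120378 windows of chromosome 4 and the 5 major arms (2L, 2R, 3L, 3R and X), called all windows below. Replicate 2 covered 693 windows (51.3%), against 19.9% of all windows, and the combined list 975 (72.2%), against 27%. Both libraries therefore covered chromosome 4 above the level of all windows, by a ratio to the major arms alone of 3.04 in replicate 1 and 2.62 in replicate 2 (mean log2 ratio 1.50 ± 0.15, SD, n = 2). With 2 libraries an exact sign-flip test cannot give a 2-sided p below 0.5, and windows of 1 library are not replicates, so this and the comparisons that follow are descriptions.

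Replicate 2 lay almost wholly inside replicate 1 on this chromosome. Both replicates covered 685 windows (50.7%, against 17.6% of all windows), and neither covered 238 (17.6%, against 70.2%). Replicate 1 alone covered 420 windows (31.1%, against 9.93%), and replicate 2 alone covered 8 (0.592%, against 2.34%). Of the windows covered in replicate 2, 98.8% were covered in replicate 1, and 62.0% in the other direction. On the 5 major arms together these shares were 87.9% and 63.9%. The share of replicate 2 found in replicate 1 was higher on chromosome 4 than on any of the 5 arms, where it ran from 86.6% on X and 3R to 90.2% on 2L. The reverse share of 62.0% lay within the range of the arms, 60.5% on 3L to 71.1% on 2R. A list that covers more of a sequence also meets more of any other list on it, and replicate 1 covered 3.04 times as large a share of windows here as on the arms.

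**Figure D1:**
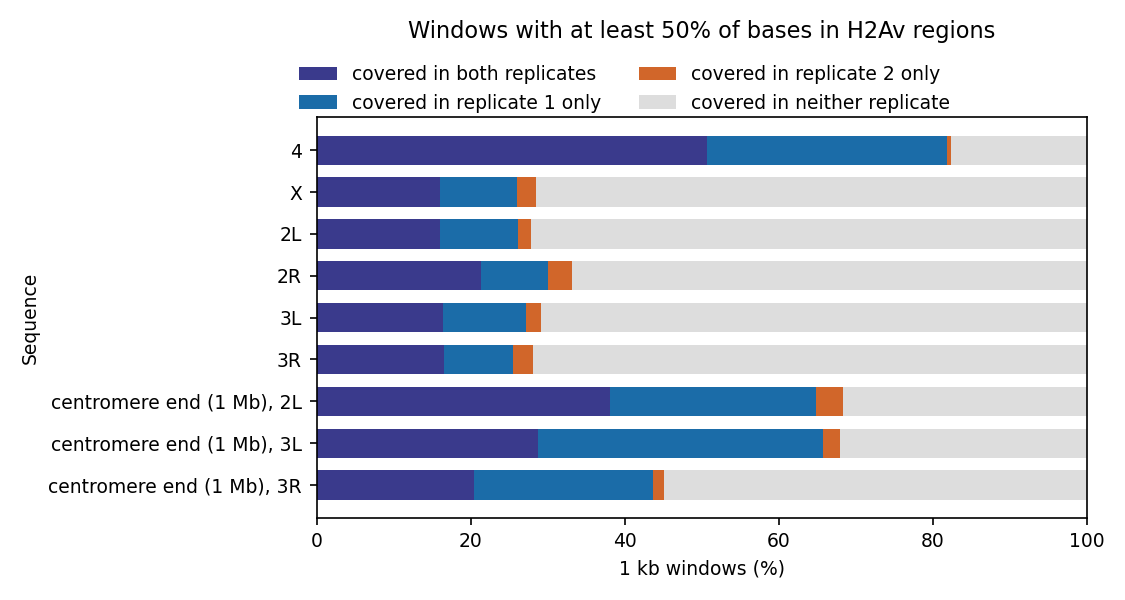
Share of 1 kb windows (%, horizontal axis) covered in both replicates, in 1 of them or in neither. Bars show chromosome 4, the 5 major arms and the 1 Mb at the centromere-side end of the 2L, 3L and 3R sequences. Chromosome 4 has 50.7% of its windows covered in both replicates and 17.6% in neither, and windows covered in replicate 2 alone make up 0.592%.

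Base by base, the replicates shared 682 kb of chromosome 4. Of the bases in its regions, replicate 1 shared 61.9% and replicate 2 shared 98.5%, with a Jaccard index of 0.613. On the major arms the index ran from 0.561 on X and 3L to 0.643 on 2R. The Spearman correlation of window coverage between the replicates was 0.55 over the 1351 windows of chromosome 4, and 0.73 over 119027 windows of the arms. These are descriptions over windows that share a library and neighbour each other. Both replicates gave a window of chromosome 4 the same state in 68.3% of cases, against 88.0% on the arms, where most windows were empty in both.

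Chromosome 4 was also set beside the 1 Mb at the centromere-side end of the 2L, 3L and 3R sequences, and it had the larger shared part. The same ends of 2R and X were not included. The 3 stretches used are called next to the centromere here, though 2LHet, 3LHet and 3RHet are separate sequences in the headers. In these stretches windows covered in both replicates made up 38.1% on 2L, 28.8% on 3L and 20.5% on 3R. Windows covered in replicate 1 alone made up 26.7%, 36.9% and 23.2% there, on either side of the 31.1% of chromosome 4. The Spearman correlation between the replicates was 0.55, 0.47 and 0.58 in these 3 stretches, over 1000 windows each, close to that of chromosome 4. Neither replicate covered 31.6%, 32.1% and 54.9% of their windows, above the 17.6% of chromosome 4. Of the windows covered in replicate 1 there, replicate 2 covered 58.8%, 43.8% and 46.9%, below the 62.0% of chromosome 4. The replicates gave the same state to 69.7%, 60.9% and 75.4% of windows, on either side of 68.3% on chromosome 4.

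Replicate 1 covered most of every part of the chromosome except its telomeric end, and the replicates differed most near its middle. Over the 13 full bins of 100 kb, replicate 1 covered 70.1% to 92.6% (median 87.1%) and replicate 2 covered 16.6% to 73.0% (median 50.3%). Replicate 1 was lowest in the first bin, next to the centromere side, where replicate 2 covered 37.6%, and highest at 200001 to 300000, where replicate 2 covered 69.6%. Replicate 2 was highest at 900001 to 1000000, with 73.0% against 87.1% in replicate 1. It was lowest at 500001 to 600000, with 16.6%, where replicate 1 covered 73.1% and the combined list 41.9%. This is a ratio of 4.42 between the replicates, against 1.19 to 1.89 in the other 12 full bins. The last 51.9 kb had 35.1% in replicate 1 and 24.0% in replicate 2. Replicate 1 covered more than replicate 2 in each of the 14 bins.

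**Figure D2:**
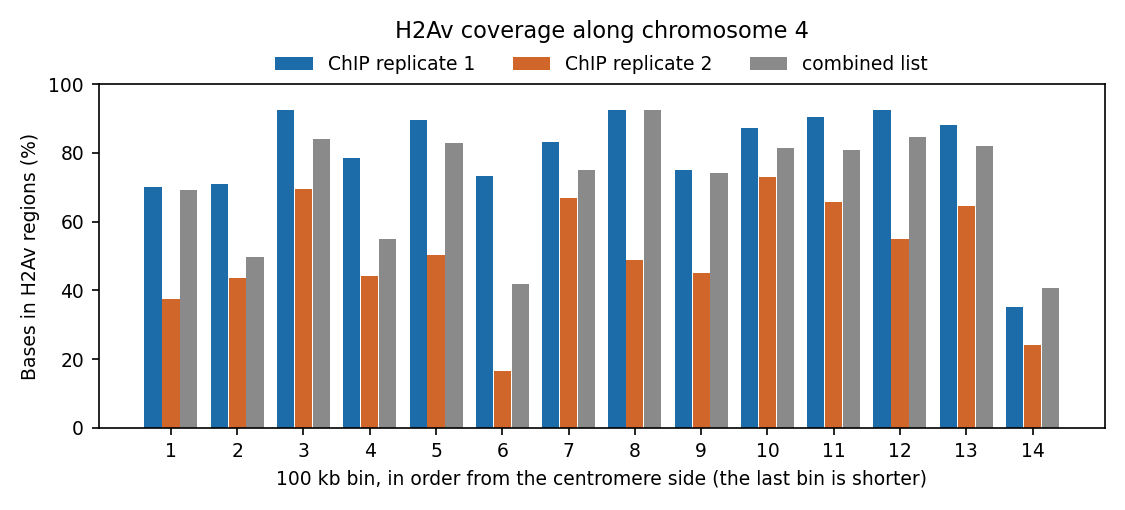
Percent of bases in H2Av regions (vertical axis) in successive 100 kb bins of chromosome 4, from the centromere side at the left, for each list; the last bin is 51.9 kb long. Replicate 1 stands above replicate 2 in all 14 bins, and replicate 2 falls to 16.6% in bin 6, where replicate 1 has 73.1%.

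Most windows covered in both replicates lay in long domains. Consecutive windows of the same state were joined into runs. The 685 windows covered in both made 74 runs with a median of 4 kb, and 20 runs of at least 10 kb held 480 of them (70.1%). The median of all shared runs was also 3 kb or 4 kb on each major arm. Sequence covered in replicate 1 alone was scattered in shorter runs, 118 of them with a median of 2 kb, and 8 runs of at least 10 kb held 23.8% of it. Sequence covered in neither made 65 runs with a median of 2 kb, and the longest was 26 kb. The 8 windows covered in replicate 2 alone made 6 runs of 1 or 2 kb.

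**Figure D3:**
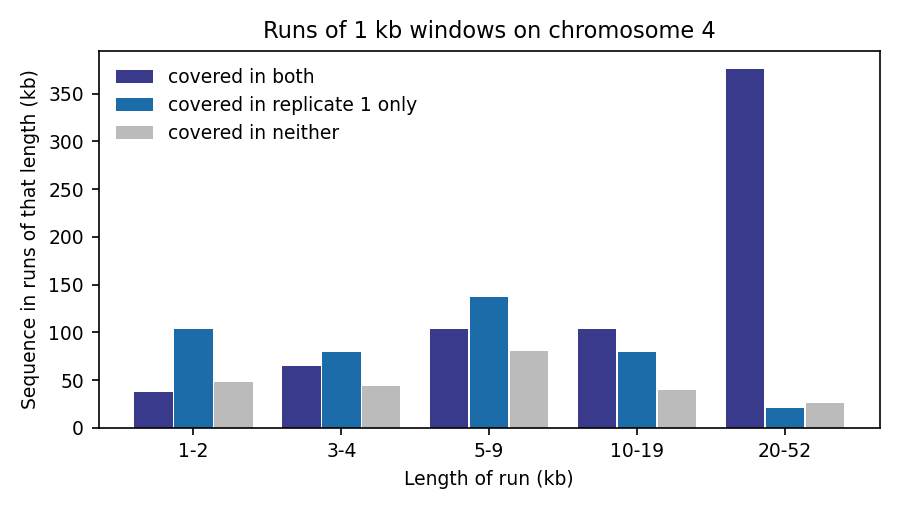
Sequence of chromosome 4 (kb, vertical axis) held in runs of 1 kb windows of each length (kb, horizontal axis), for windows covered in both replicates, in replicate 1 only and in neither. Runs of 20 kb or more hold 376 kb of the sequence covered in both, 21 kb of that covered in replicate 1 only and 26 kb of that covered in neither.

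The longest shared domains were covered almost without a break. The first of them was 52 kb, at 978001 to 1030000, where 1 region of replicate 1 covered 100% and 3 regions of replicate 2 covered 99.2%. It was followed by 46 kb at 1143001 to 1189000, which lay wholly inside 1 region of each replicate. Next was a domain of 40 kb at 164001 to 204000, covered to 100% in replicate 1 and to 98.8% by 2 regions of replicate 2. The 1 region of the combined list at each of these places covered it whole.

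The other 5 of the 8 longest shared domains lay at 301001 to 330000 (29 kb), 643001 to 670000 and 1234001 to 1261000 (27 kb each), 908001 to 933000 (25 kb) and 852001 to 875000 (23 kb). Replicate 1 covered 97.8% to 100% of each of these and replicate 2 covered 97.3% to 98.9%. The domains were thus spread along the chromosome and not gathered at 1 end. On chromosome 4 there were 14.8 shared runs of at least 10 kb per Mb, against 3.57 on X, 3.83 on 3L, 4.05 on 3R, 4.09 on 2L and 5.58 on 2R. In the 1 Mb next to the centromere there were 16 on 2L, 8 on 3L and 6 on 3R, so 2L had about as many there. The run of 52 kb was longer than any shared run of the major arms, where the longest was 49 kb, on X.

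In each library taken alone the domains were longer in replicate 1. Its longest run of covered windows was 118 kb, at 223001 to 341000, made of 4 regions that covered 99.1% of it. Replicate 2 covered 78.6% of that stretch in 10 regions. The next run of replicate 1, of 84 kb at 1055001 to 1139000, was made of 2 regions covering 98.9%, and replicate 2 covered 43.5% of it in 7 regions. After it came the 61 kb at 976001 to 1037000, a single region of replicate 1 of which replicate 2 covered 85.3%. Covered runs had a median length of 8 kb in replicate 1 and 4 kb in replicate 2, and the combined list lay between them at 6 kb. Replicate 2 thus broke the domains of replicate 1 into pieces: 21 of the 99 regions of replicate 1 met at least 2 regions of replicate 2, and 1 of them met 8.

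The uncovered stretches between domains were short. The longest stretch with no region in any list was the telomeric end itself, 27.0 kb from 1324824 to the last base at 1351857. The second with no replicate region lay near the other end, 17.4 kb from 6682 to 24065, inside which the combined list had 1 region, at 10582 to 11582. Elsewhere the longest were 11.7 kb at 135953 to 147633, 10.4 kb at 382435 to 392822, 9.49 kb at 876561 to 886050 and 8.35 kb at 1037160 to 1045513. The last 2 of the 8 longest were 7.67 kb at 670972 to 678640 and 7.61 kb at 565929 to 573539. Those 6 held no region in any list. On the arms, which are 21146708 to 27905053 bp long, the longest run covered in neither replicate was 248 kb to 496 kb. Each arm had 60 to 92 such runs of at least 50 kb, against 0 on chromosome 4, with neither value adjusted for the length of the sequence. In the 1 Mb next to the centromere the longest such run was 28 kb on 2L and 16 kb on 3L, with 0 of at least 50 kb on either, and 153 kb on 3R. Short uncovered runs were thus shared with those ends of 2L and 3L. The release 5 sequence was not used here, so repeats and unsequenced bases in these stretches were not examined.

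Domains covered in both replicates seldom stopped at a stretch covered in neither. Of the 128 windows that flanked the 65 shared uncovered runs, replicate 2 covered 21 (16.4%), against 35.3% of 12396 such windows on the major arms. A flanking window is covered in at least 1 replicate by definition, so the others were covered in replicate 1 alone. Inside the domains, replicate 2 covered 17.4% of the 132 edge windows of the covered runs of replicate 1 and 48.2% of the 191 windows at 2 to 3 kb from an edge. Its share was 61.9% at 4 to 6 kb, 72.0% at 7 to 10 kb, 76.4% at 11 to 20 kb and 80.9% at 21 to 59 kb. The share went up at each step. Windows at greater distance can only come from longer runs, and replicate 2 covered 10.4% of windows in runs of 1 to 4 kb and 75.8% of those in runs of 40 to 118 kb.

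The same order was seen on the major arms, at a higher level. There replicate 2 covered 40.8% of edge windows of replicate 1 runs, 72.3% of windows at 2 to 3 kb, 84.9% at 4 to 6 kb and 90.3% at 7 to 10 kb. For runs of 40 to 118 kb it covered 94.2% of 411 windows on the arms, against 75.8% of 508 on chromosome 4. In all 6 classes of distance and all 5 of length, replicate 2 left more of the runs of replicate 1 uncovered on chromosome 4 than on the arms. Distance and length were not matched jointly, and both splits use the same windows, so they are not separate observations. The class of 21 to 59 kb held 51 windows on the arms and 188 on chromosome 4. Neighbouring windows are not independent: 84 of the 508 lie in the run at 1055001 to 1139000, where replicate 2 covered 38. The 1 Mb stretches next to the centromere were not split in this way. Over all classes together, replicate 2 covered 43.8% to 58.8% of their replicate 1 windows, below the 62.0% of chromosome 4. An overall share this low is thus not particular to chromosome 4. That share does not show the classes, since it was 63.9% on the arms, close to chromosome 4, though every class differed. Whether these stretches differ from the arms within classes is not known.

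**Figure D4:**
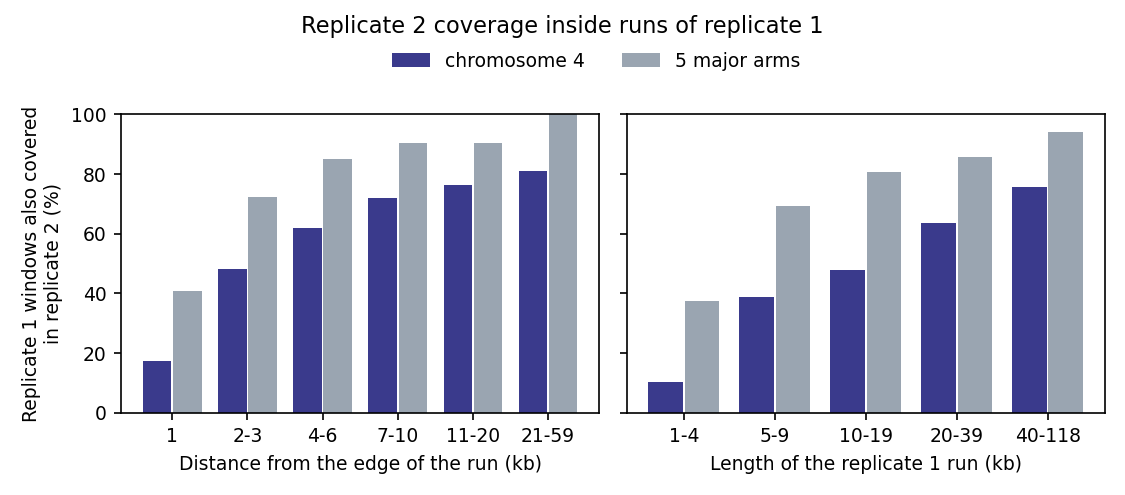
Percent of windows covered in replicate 1 that were also covered in replicate 2 (vertical axis), by distance from the edge of the replicate 1 run (left, kb, edge window 1) and by its length (right, kb), on chromosome 4 and on the 5 major arms. On chromosome 4 the share goes from 17.4% at the edge to 80.9% at 21 to 59 kb, below the arms in every class.

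The edges of replicate 2 regions lay farther from those of replicate 1 on chromosome 4 than on the arms. Of the 90 left edges in replicate 2, 12 (13.3%) lay within 500 bp of a left edge in replicate 1, and of the right edges 11 (12.2%) did. The median distance was 3376 bp for left and 2874 bp for right edges. On the 5 major arms 47.6% to 53.3% of left edges and 45.3% to 54.0% of right edges of replicate 2 lay within 500 bp, with medians of 432 to 578 bp. Taken from the regions of replicate 1, the median distance to an edge of replicate 2 was 4329 bp for left and 3454 bp for right edges, against 2130 to 4025 bp and 2089 to 3989 bp on the arms. In that direction the right edges were within the range of the arms and the left edges a little above it, with 12.1% and 11.1% within 500 bp against 22.4% to 30.2% on the arms.

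Replicate 2 met the wider, higher-scoring regions of replicate 1 more often than the narrower, lower-scoring ones. The score is the authors' own value for each region. Since no source used here defines it, it served to rank regions within 1 list. Replicate 2 met 53 of the 99 regions of replicate 1 (53.5%, against 55.1% of the 8402 on the major arms and chromosome 4) by at least 1 bp and missed 46, so the share met was near that of all regions. Those missed had a median score of 0.88 and a median width of 2080 bp, and those met had 2.10 and 10927 bp. All 33 highest-scoring regions, with scores of 1.65 to 3.19, met replicate 2, which covered 75.0% of their 768 kb. Among the 33 lowest-scoring regions, with scores of 0.37 to 0.95, 29 met none, and replicate 2 covered 19.6% of their 80.6 kb. Of the 33 in between, 17 met none. Width and score went together (Spearman correlation 0.79 over the 99 regions), and their parts were not separated. A wider region also meets another list more readily by 1 bp. Median width was 18750 bp in the highest-scoring 33 and 1841 bp in the lowest-scoring 33, and the median gap between replicate 2 regions was 3463 bp. The counts met therefore cannot be read as an effect of score.

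**Figure D5:**
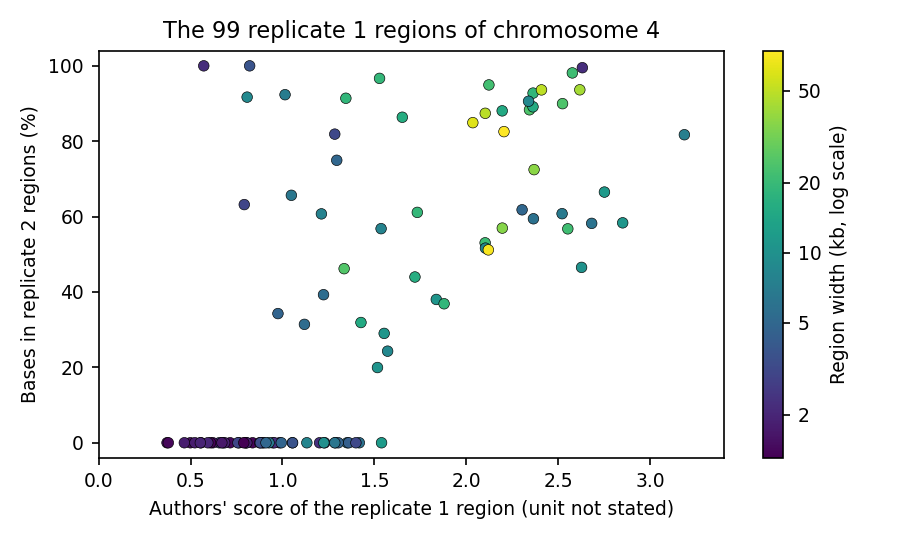
Each point is 1 of the 99 regions of replicate 1 on chromosome 4: its score (horizontal axis, unit not stated), the percent of its bases in regions of replicate 2 (vertical axis) and its width (colour, kb, log scale). The 46 points at 0% have scores of 0.37 to 1.54, and all regions above that range meet replicate 2.

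Nearly all regions of replicate 2, 88 of 90 (97.8%), met replicate 1, close to the 95.1% of its 4329 regions on the major arms and chromosome 4. Wholly inside regions of replicate 1 lay 75 of them (83.3%), against 23.1% of the 4239 on the major arms. Replicate 1 covered 81.5% of the bases of chromosome 4, which raises both shares. The 2 that did not had scores of 0.61 and 1.23 and held 3.20 kb together. Over the 26 regions matched 1 to 1 on chromosome 4, the Spearman correlation of scores between the replicates was 0.84, and that of widths was 0.70. Each is a description over regions of the same 2 libraries.

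Among the 5 highest-scoring regions of each replicate, 1 place was found in both sets. The highest scores of replicate 1 were 3.19 at 1232304 to 1239667, 2.85 at 223406 to 234269, 2.75 at 147634 to 159110, 2.68 at 806902 to 813021 and 2.63 at 4466 to 6681. Replicate 2 covered 81.7%, 58.3%, 66.5%, 58.2% and 99.5% of these. Its own highest scores were 1.83 at 599430 to 615400, 1.80 at 615586 to 632531 and at 225790 to 232128, 1.76 at 198603 to 204286 and 1.73 at 1045874 to 1053701. The first 2 of them are neighbours and lie in 1 region of 34.5 kb of the combined list. The region at 225790 to 232128 lies inside the second region of replicate 1, and it is the place found in both sets of 5. Replicate 1 covered 89.2% of the first and 100% of the other 4. The cut at 5 fell among close scores. Just below it in replicate 1 were 207886 to 218202 (2.627) and 162998 to 205918 (2.618), after 2.632 at 4466 to 6681. The region at 162998 to 205918 contains the one of replicate 2 at 198603 to 204286.

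The longest stretches where replicate 1 stood alone were 10 to 21 kb, and the first 2 lay in its run of 84 kb at 1055001 to 1139000. The longest was 21 kb at 1108001 to 1129000, covered to 100% by 1 region of replicate 1 and to 0% in replicate 2, and to 99.7% in the combined list. Next came 15 kb at 1055001 to 1070000, where replicate 1 covered 96.5%, replicate 2 covered 0% and the combined list 70.1%. The run of 13 kb at 509001 to 522000 had 96.9%, 1.02% and 42.8%. The runs at 829001 to 840000 (11 kb) and 342001 to 352000 (10 kb) had 97.3% and 99.5% in replicate 1 and 0% in replicate 2, but 99.7% and 24.8% in the combined list. The combined list therefore kept some of these stretches whole and dropped most of others. Where replicate 2 stood alone, the longest runs were 2 kb, at 365001 to 367000 and at 613001 to 615000. Replicate 2 covered 79.3% and 100% of these, and replicate 1 covered 0% and 13.6%. The other 3 of its 5 longest were single windows starting at 3001, 411001 and 776001.

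Replicate 2 left wide stretches empty that replicate 1 filled in part. Its longest uncovered run was 58 kb at 91001 to 149000, where replicate 1 covered 51.5% with 11 regions and the combined list 7.73%. In the 53 kb at 509001 to 562000, within the bin where replicate 2 was lowest, replicate 1 covered 70.4% with 12 regions and the combined list 32.0%. The 29 kb at 811001 to 840000 were covered to 67.2% in replicate 1 and to 68.9% in the combined list, and the 28 kb at 337001 to 365000 to 86.4% and 23.0%.

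The combined list held nearly all the sequence on which the replicates met, all but 22 of 682339 shared bases. It covered all 685 windows covered in both replicates and all 8 covered in replicate 2 alone. Of the 420 covered in replicate 1 alone it covered 268 (63.8%), and of the 238 covered in neither it covered 14 (5.88%). Of its 84 regions on chromosome 4, 46 met both replicates and held 890 kb of its 974 kb, with a median width of 10257 bp. Another 31 met replicate 1 alone, with a median width of 1675 bp, and 2 met replicate 2 alone.

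The 5 remaining regions of the combined list met no region of either replicate, and 3 of them had its highest scores on this chromosome. They lay at 10582 to 11582 with a score of 3.02, at 35662 to 37306 with 2.63 and at 98724 to 99738 with 2.22, all in the first 100 kb from the centromere side. The other 2, at 1296022 to 1297136 and 1305904 to 1306904, had scores of 1.32 and 0.73. All 5 were narrow, from 1001 to 1645 bp. Next in score came the regions at 224576 to 232890 (2.19) and 598846 to 633336 (2.07), which met both replicates and contain 3 of the 5 highest-scoring regions of replicate 2. How that list was made is not stated in the sources used here.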

How the data were processed

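The deposited data are 3 lists of enriched regions with positions on FlyBase release 5, per the file headers. Bowtie 0.12.7, a read aligner, is named in the submitters' processing notes. No source used here names the peak caller, its threshold or the way replicates were combined. Each region carries the authors' score, which is not defined either. The labels name each of the 2 input libraries as input of the same-numbered ChIP list, and no values of the inputs were analysed here. Read depth is unknown, and with it the counting error of every value.

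Region bases were counted in full windows of 1 kb, and a window was covered at 50% or more. Runs joined consecutive windows of 1 state. The positions named are the 8 longest runs covered in both replicates and in neither, the 5 longest covered in 1 replicate only, the 5 highest-scoring regions of each list, and the highest and lowest bins of 100 kb. Other stretches named are the longest runs of a single list and the 5 combined-list regions without a replicate region, chosen after their values were seen. The windows, lists and comparisons were chosen with earlier results of these data known. No test was made over windows or regions, and the mean ± SD is over the 2 ChIP lists. Python 3.11.15, NumPy 2.4.6 and SciPy 1.17.1 were used, and window, run and overlap counts were tested on simulated data. The simulated regions were made of whole windows, and those of 1 list lay inside the other. Partly covered windows and the 50% limit were therefore not tested. The available gene table uses release 6 positions, so genes and sequence are not given. Alternatives changed the covered limit, window size and start, score threshold, list length, joining of regions less than 1 kb apart, the replicate used and the arms.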

Additional observations from a re-analysis of the deposited data

How the results depend on the processing

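Of 62 alternative values, 50 moved by less than the limit set for their kind (a factor of 1.5 for counts, 1 SD between replicates for the coverage and the ratio to the arms, the 95% Wilson interval over bases for the Jaccard index, and a change in the second decimal for the Spearman correlation). The last 2 limits are narrow, so small changes passed them. The Wilson interval treats bases as independent, which neighbouring bases of a region are not. It served only as a limit and does not measure the uncertainty of the index. The ratio to the arms stayed above 0 on the log2 scale. The log2 ratio of windows covered in both replicates, chromosome 4 over the major arms, was 1.56. It was 1.75 when only wholly covered windows counted and 1.89 with the longer replicate list cut by score to the length of the shorter. With replicate 1 left out the ratio was 1.39, and with replicate 2 left out 1.61. Both are ratios of windows covered in the 1 remaining list, a different measure from that of windows covered in both. Coverage of chromosome 4 ran from 51.3% to 81.5% with either replicate left out. Neither of 2 values can lie as far as their SD from their mean. These 2 coverage values therefore count among the 50 by construction, and do not show that coverage is stable. The Spearman correlation between the replicates was 0.50 in windows of 500 bp, 0.60 in windows of 2 kb, 0.43 with only the higher-scoring 50% of regions kept, 0.54 with lists of the same length and 0.51 with regions less than 1 kb apart joined. Under the last 3 of these the Jaccard index was 0.472, 0.623 and 0.616. Windows not covered in the combined list numbered 376. The 238 covered in neither replicate are a different measure, since there both lists had to leave the window uncovered. The cause of these changes was not tested. Counts of shared runs of at least 10 kb ran from 18 to 24, and of shared uncovered runs of at least 5 kb from 11 to 23. No paired analysis was possible because the inputs were not analysed here apart from the ChIP lists tied to them. Genes in runs were not counted, for want of release 5 gene positions.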
